A study of Oryza sativa with 12 samples.

Results

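The 150 loci described here were those with the strongest common increase in transcript level when rice seedlings of 2 cultivars were put under water deficit. The compared seedlings were 21 days old and of the drought-tolerant cultivar N22 or the drought-sensitive cultivar IR64. They stood for 6 h either in 20% PEG 6000 (drought) or in RO (reverse osmosis) water (control). PEG 6000 is polyethylene glycol, a large polymer that draws water away from roots by osmosis. The 4 groups, N22 drought, N22 control, IR64 drought and IR64 control, had 3 RNA sequencing libraries each, and the labels name no transgene or mutation. The replicates are described as biological, and the labels give neither the organ nor how many seedlings made up a library. Each cultivar is 1 genotype, so a difference between them is a difference between these 2 genotypes.

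Members were chosen by their measured drought change. Loci needed a mean of at least 5 FPKM (fragment numbers scaled to transcript length and to library size) in both drought groups. Of 39093 loci in all, 14312 with a locus name reached it, not counting those the rule left out. For each cultivar the mean log2(FPKM + 1) of the control libraries was subtracted from that of the drought libraries, and a locus was scored by the smaller of its 2 changes. The 150 highest scores were kept. The rule left out LOC_Os05g46480 and the loci from LOC_Os11g26750 to LOC_Os11g26790. The last 2 loci inside the limit scored 2.25 and 2.24, and the first 2 outside both scored 2.24, so the limit does not mark a gap. All 150 passed the filter on low values used in the tests. The drought changes below therefore describe how the members were picked. They carry no test.

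Plants that lose water accumulate the hormone abscisic acid (ABA). ABA bound to its receptors blocks clade A protein phosphatases of type 2C (PP2Cs), which otherwise keep SnRK2 kinases inactive. The released kinases activate transcription factors that switch on protective genes, among them those of late embryogenesis abundant (LEA) proteins, small hydrophilic proteins that are also made in maturing seeds. Many clade A PP2C genes are themselves switched on by ABA, which makes a feedback loop. ABA 8'-hydroxylases break the hormone down.

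Of the 150 members, 15 could be given a gene symbol and are described by their role. The other 135 are given by locus only. None of the 12 libraries duplicated another. The third drought library of both cultivars stood apart for these loci: it was the lowest of its group for 140 members in N22 and 119 in IR64. Over the loci that met the FPKM minimum it was the lowest for 48% in N22 and 42.5% in IR64. Some markers of both shoot and root were present throughout. The Rubisco activase gene RCA, active in leaves, ranged from 165 to 1298 FPKM. LSI1, a root silicon transporter gene, ranged from 125 to 321 FPKM. NRT2.1, also listed as a root marker, stayed low at 0.0769 to 1.21 FPKM. RCA averaged 244 FPKM in N22 drought libraries and 955 FPKM in N22 control libraries, and 249 against 961 FPKM in IR64. CAB1R, also listed as a leaf marker, went the other way. It averaged 269 FPKM under drought against 41.1 FPKM in control in N22, and 231 against 57.3 FPKM in IR64. Of 10 loci listed as leaf markers, 2 were called higher and 5 lower under drought in N22, and 1 higher and 5 lower in IR64. Of all tested loci 6.55% were called higher in N22 and 4.35% in IR64. The share of all tested loci called lower is not given here, so the lower counts cannot be set against it. Of 4 tested loci listed as root markers, 1 was called lower in N22 and 0 in IR64 by limma at an adjusted p of 0.05 and a log2 change of 1, where 1 had an unadjusted p below 0.05. Whether the organ make-up of the samples had a part in the results was not tested. In bulk seedling RNA, more cells of a type and more RNA per cell cannot be told apart.

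The members together were a small part of the transcript pool in control libraries and a larger one under drought. Their summed FPKM made up 4.54%, 5.74% and 2.44% of the total in the N22 drought libraries, against 0.277%, 0.328% and 0.338% in the N22 control libraries. In IR64 they made up 3.09%, 4.88% and 2.58% under drought, against 0.391%, 0.508% and 0.41% in control. The mean shares were 4.24% ± 1.67 and 0.314% ± 0.0325 in N22 drought and control libraries, and 3.52% ± 1.21 and 0.437% ± 0.0627 in IR64 (SD, n = 3 each). The drought groups lay clear of their controls in both cultivars, and the third drought library was the lowest of its group in both. The 10 most abundant members held 37.3% to 45.4% of the members' sum in N22 drought libraries and 53% to 63.4% in IR64 drought libraries, so the IR64 sum rested on fewer loci.

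**Figure D1:**
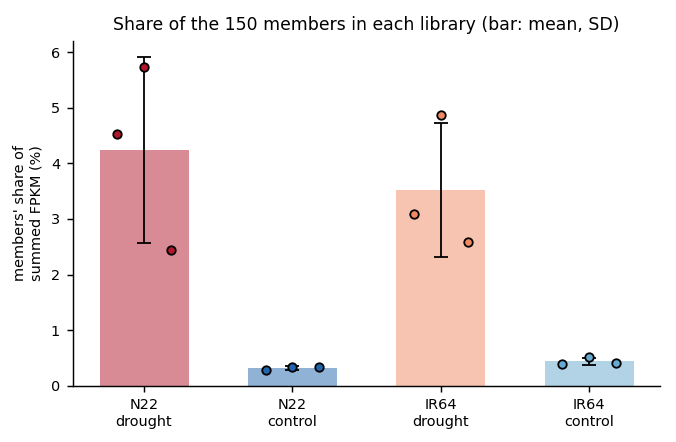
The share of summed FPKM (percent) held by the 150 members is plotted for the 4 groups on a linear axis from 0, with 1 point per library, bars for the mean and lines for the SD (n = 3). Drought libraries lie between 2.44% and 5.74%, control libraries between 0.277% and 0.508%.

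The median change was 3.57 in N22 (quartiles 3.09 and 4.86) and 2.97 in IR64 (quartiles 2.55 and 3.6), on the log2(FPKM + 1) scale. This scale understates the change of loci with low control values. Changes of at least 4 were seen for 56 members in N22 and 26 in IR64. limma called 149 members higher under drought in N22 and 148 in IR64, where 6.55% and 4.35% of all 24276 tested loci were called higher. In N22 all 3 drought libraries lay above all 3 control libraries for 150 members, and in IR64 for 148. Over all tested loci the shares were 25.5% and 22.3%. The rule fixed these counts. The members not called were LOC_Os09g20220 in both cultivars and LOC_Os11g14910 in IR64. LOC_Os09g20220 was chosen for its missing calls, after its values were seen. It had 70.4, 42.8 and 3.38 FPKM in N22 drought libraries and 2.55, 1.61 and 3.19 FPKM in N22 control libraries. The IR64 values were 72.2, 91.8 and 2.44 FPKM under drought and 1.15, 1.34 and 2.82 FPKM in control. The first and second drought libraries were far above control in both cultivars, and the third was near the control level.

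**Figure D2:**
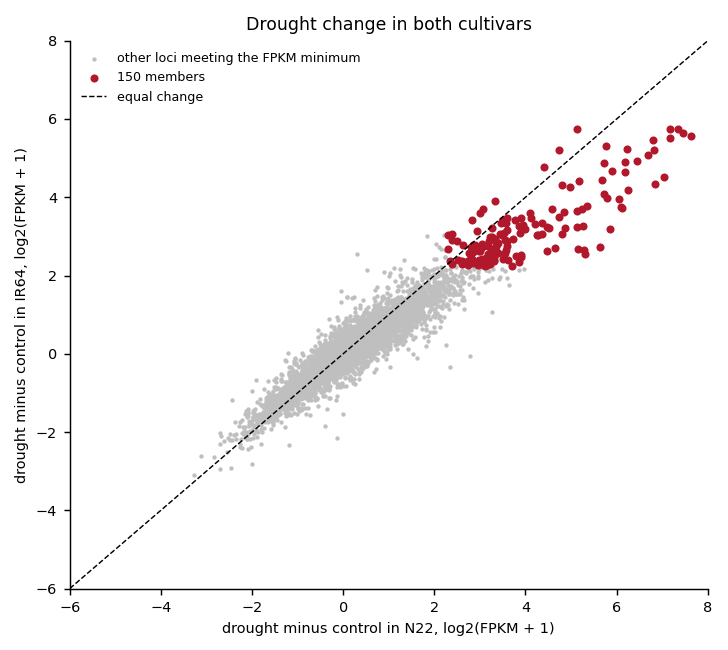
Each point is a locus that met the FPKM minimum, with its drought minus control change in N22 on the x axis and in IR64 on the y axis, both in log2(FPKM + 1). The 150 members fill the upper right corner, 135 of them below the line of equal change, and pass without a gap into the other loci.

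The members came from very different starting levels. The median of their control means was 3.02 FPKM in N22 and 3.77 FPKM in IR64, and the median of their drought means was 90.7 FPKM in N22 and 53 FPKM in IR64. In control libraries 37 members averaged under 1 FPKM in both cultivars and 31 averaged at least 10 FPKM in both. Under drought 67 members averaged at least 100 FPKM in N22 and 44 did in IR64, against 5 and 6 in control libraries. EMP1 and LOC_Os01g68290 had no control library above 0 in N22. In IR64 this held for EMP1, LOC_Os04g31710, LOC_Os06g21910, LOC_Os10g39610 and the joint row of LOC_Os02g09290 and LOC_Os02g09310. A listed 0 can also be a failed estimate, so no fold is given for them.

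Protein phosphatases of type 2C made up 4 of the named members, 3 of them in clade A. The one outside clade A, PP2C59, was given its symbol after its values were seen. PP2C51 (LOC_Os05g49730), a clade A phosphatase, had 50.9, 37.9 and 17.401 FPKM in N22 drought libraries and 1.1, 0.756 and 0.934 FPKM in N22 control libraries. IR64 drought libraries had 17.923, 24.6 and 6.31 FPKM and IR64 control libraries 0.458, 0.381 and 0.268 FPKM. It was scarce in every control library, and the drought groups did not overlap their controls (change 4.12 in N22 and 3.48 in IR64). PP2C68 (LOC_Os09g15670), another clade A member, was already present in control libraries. It had 107, 109 and 35.8 FPKM in N22 drought libraries and 2.83, 6.58 and 5.58 FPKM in N22 control libraries, and 48.2, 98.3 and 17.1 FPKM under drought against 4.02, 5.16 and 5.52 FPKM in control in IR64. Its changes were 3.72 in N22 and 2.93 in IR64, again without overlap.

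The clade A phosphatase PP2C49 shares 1 row with a neighbouring locus (LOC_Os05g38270 and LOC_Os05g38290), so its value may include reads of both. The row had 87.7, 95.6 and 40.7 FPKM in N22 drought libraries and 4.78, 7.18 and 6.14 FPKM in N22 control libraries. In IR64 it had 47.4, 63.6 and 14.9 FPKM and 3.79, 5.78 and 5.47 FPKM under drought and in control. Changes were 3.35 in N22 and 2.63 in IR64, with separate groups. PP2C59 (LOC_Os06g48300), a phosphatase outside clade A, was the most abundant of the 4 under drought. It had 315, 412 and 128 FPKM in N22 drought libraries and 4.49, 3.42 and 4.22 FPKM in N22 control libraries, and 133, 154 and 51.5 FPKM under drought against 3.94, 3.17 and 4.23 FPKM in control in IR64. The control values of PP2C59 lay between 3.17 and 4.49 FPKM in both cultivars, while its drought changes were 5.67 in N22 and 4.43 in IR64.

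On the breakdown side of ABA, ABA8OX2 (LOC_Os08g36860), an ABA 8'-hydroxylase, had 98.5, 114 and 62.7 FPKM in N22 drought libraries and 6.47, 6.9 and 7.58 FPKM in N22 control libraries. For IR64 the values were 51.3, 56.8 and 39.7 FPKM under drought and 8.71, 8.26 and 7.96 FPKM in control. Its control values all lay between 6.47 and 8.71 FPKM, and the change was 3.50 in N22 and 2.42 in IR64. PM1 (LOC_Os05g31670), a plasma membrane protein of the AWPM-19 family that takes up ABA, had the second highest score of the named members. It had 259.5, 314 and 79.2 FPKM in N22 drought libraries and 0.851, 1.18 and 0.521 FPKM in N22 control libraries. In IR64 it had 58.1, 56.9 and 28.8 FPKM under drought and 0.61, 0.404 and 0.14 FPKM in control. PM1 was near the floor in every control library, all 3 N22 drought libraries were above all 3 IR64 drought libraries, and the changes were 6.68 in N22 and 5.09 in IR64.

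Genes best known from maturing seeds are described next. Of these, EMP1 and MFT1 were given their symbols after their values were seen. LEA3-2 (LOC_Os03g20680), a LEA protein of group 3, had 66.2, 134 and 26.2 FPKM in N22 drought libraries and 0.751, 1.37 and 1.38 FPKM in N22 control libraries. The IR64 values were 15.3, 28.5 and 4.72 FPKM under drought and 0.451, 0.574 and 0.512 FPKM in control. The groups were separate in both cultivars, although the drought libraries of one cultivar differed among themselves by several fold (change 4.87 in N22 and 3.21 in IR64). EMP1 (LOC_Os05g28210), a LEA protein of group 1 typical of embryos, had 47.9, 74.4 and 15.8 FPKM in N22 drought libraries and 0 in all 3 N22 control libraries. In IR64 it had 7.86, 8.74 and 1.31 FPKM under drought and 0 in all 3 control libraries. EMP1 was thus seen under drought alone in these libraries, and each N22 drought library exceeded each IR64 one. MFT1 (LOC_Os06g30370), a phosphatidylethanolamine-binding protein of a family that acts in seed dormancy and flowering, had 157, 226 and 78.9 FPKM in N22 drought libraries and 2.5, 6.8 and 3.43 FPKM in N22 control libraries. IR64 drought libraries had 47.6, 75 and 43.2 FPKM and IR64 control libraries 1.55, 4.66 and 5.05 FPKM. Its changes were 4.84 in N22 and 3.62 in IR64, with no overlap of drought and control. Unlike EMP1, MFT1 was detected in every control library.

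Both named transcription factors were homeodomain-leucine zipper proteins of subfamily I. HOX24 (LOC_Os02g43330) had the highest score of all 150 members. It had 304, 429.8 and 93.5 FPKM in N22 drought libraries and 0.288, 0.47 and 0.494 FPKM in N22 control libraries. For IR64 the values were 98.7, 198 and 28.2 FPKM under drought and 0.268, 0.774 and 0.696 FPKM in control. HOX24 was under 1 FPKM in every control library, and its changes were 7.36 in N22 and 5.74 in IR64. HOX22 (LOC_Os04g45810), its close relative, had 234, 258 and 86.9 FPKM in N22 drought libraries and 6.39, 8.02 and 6.44 FPKM in N22 control libraries. In IR64 it had 84.5, 135 and 54 FPKM under drought and 4.95, 9.3 and 11.1 FPKM in control. HOX22 was already present in control libraries, and its changes were 4.47 in N22 and 3.25 in IR64.

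The remaining named members act in sugar transport, carbon use and protection. SWEET15 (LOC_Os02g30910), a sucrose exporter, had 255, 201 and 87 FPKM in N22 drought libraries and 1.98, 0.76 and 1.25 FPKM in N22 control libraries. The IR64 values were 71.8, 93.9 and 27.5 FPKM under drought and 1.01, 1.01 and 0.854 FPKM in control. SWEET15 was low in all controls and its changes were 6.19 in N22 and 4.89 in IR64. ICL (LOC_Os07g34520) encodes isocitrate lyase, an enzyme of the glyoxylate cycle that turns stored fat into sugar. It had 83.8, 128 and 26.4 FPKM in N22 drought libraries and 1.41, 0.377 and 1.1 FPKM in N22 control libraries, and 43.3, 127 and 42.8 FPKM under drought against 3.48, 8.24 and 6.31 FPKM in control in IR64. The cultivars overlapped under drought but not in control, where every N22 library was below every IR64 library, and the changes were 5.13 in N22 and 3.23 in IR64.

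SALT (LOC_Os01g24710), a mannose-binding lectin first described in salt-stressed rice, was the most abundant named member in IR64. It had 177, 697 and 176 FPKM in N22 drought libraries and 28.8, 29.7 and 39.4 FPKM in N22 control libraries. IR64 drought libraries had 622, 1925 and 955 FPKM and IR64 control libraries 84.8, 96 and 62.5 FPKM. SALT was the 1 named member whose change was smaller in N22 (3.07) than in IR64 (3.69), and the second drought library was the highest in both cultivars. HSP17.9A (LOC_Os03g15960), a small heat shock protein that keeps damaged proteins from clumping, had 81.6, 188 and 48.2 FPKM in N22 drought libraries and 5.79, 11.1 and 7.69 FPKM in N22 control libraries. For IR64 the values were 46.2, 98.1 and 37.9 FPKM under drought and 5.24, 9.78 and 6.11 FPKM in control. The second library was the highest in all 4 groups, and the changes were 3.36 in N22 and 2.86 in IR64.

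**Figure D3:**
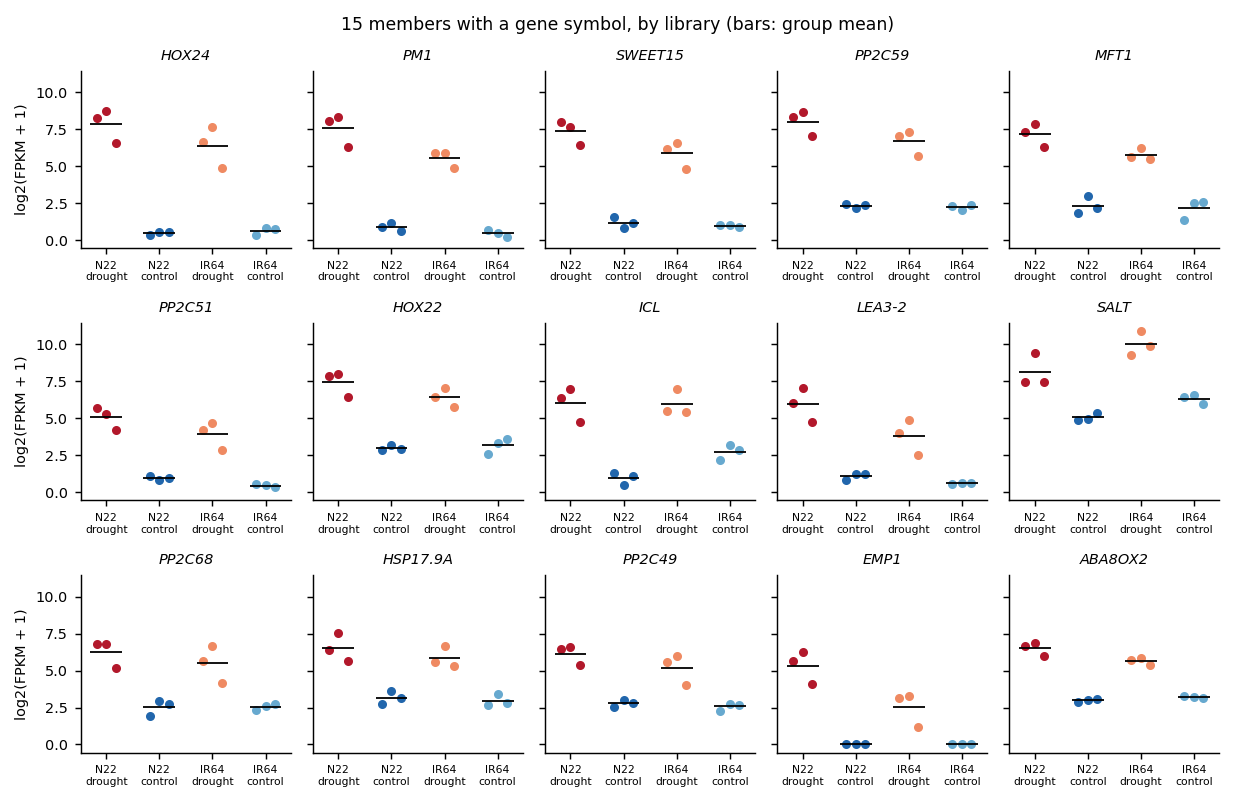
Each panel shows 1 of the 15 named members as log2(FPKM + 1) in the 12 libraries, 1 point per library in the order of replicate numbers, with a bar at each group mean. In all 15 panels the drought points lie above the control points of the same cultivar, and in many the third drought point is the lowest of its group.

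Among the members without a symbol, LOC_Os01g50910 and LOC_Os01g46600 had the highest scores. LOC_Os01g50910 had 720.0, 1123 and 266 FPKM in N22 drought libraries and 2.17, 4.61 and 2.97 FPKM in N22 control libraries. In IR64 it had 170.5, 216 and 76.7 FPKM under drought and 1.25, 1.8 and 2.05 FPKM in control. LOC_Os01g46600 had 963, 1532 and 335 FPKM in N22 drought libraries and 5.14, 4.4 and 1.76 FPKM in N22 control libraries, and 194, 485 and 82.9 against 1.81, 4.42 and 3.21 FPKM in IR64. For both loci every drought library was far above every control library. LOC_Os01g15270, which had the highest mean over both drought groups and was chosen for mention after its values were seen, had 2264, 3038 and 1218 FPKM in N22 drought libraries and 147, 275 and 213 FPKM in N22 control libraries. The IR64 values were 3011, 6796 and 3279 FPKM under drought and 481, 1008 and 722 FPKM in control. It was abundant in every library. In N22 drought libraries alone LOC_Os07g10840 had the highest mean, 2357 FPKM against 2173 FPKM for LOC_Os01g15270.

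The size of the change differed between replicate numbers. Between libraries of the same number, the members' median change was 4.08, 4.11 and 2.93 for numbers 1, 2 and 3 in N22, and 3.25, 3.63 and 2.46 in IR64. Number 3 gave the smallest median in both cultivars. Without the third drought library the members' median change of group means was 4.02 in N22 and 3.24 in IR64. A change of at least 2 was seen for 150, 148 and 136 members in N22 and for 144, 145 and 102 in IR64. The members varied more among drought libraries than among controls. The median SD of log2(FPKM + 1) over the 3 libraries was 0.77 and 0.21 in N22 drought and control, and 0.73 and 0.22 in IR64. Over all tested loci the same medians were 0.2 and 0.12 in N22, and 0.19 and 0.12 in IR64.

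**Figure D4:**
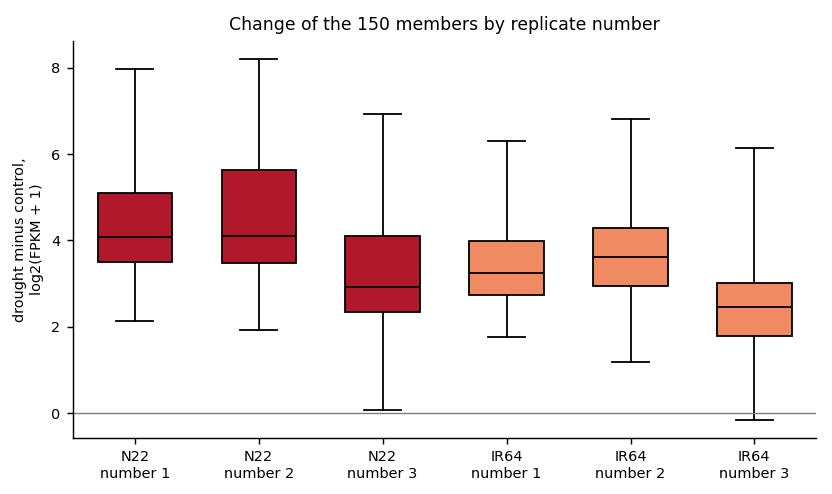
Boxes show the drought minus control change of the 150 members in log2(FPKM + 1) between libraries of the same replicate number, with the median, quartiles and full range, for N22 (left) and IR64 (right). Number 3 has the lowest median in each cultivar, 2.93 in N22 and 2.46 in IR64.

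Most members shared this order, but not all. The third drought library was the lowest in both cultivars for 118 members, and the second in both for 6. These 6 were LOC_Os01g19820, LOC_Os03g19270 and a row of 4 neighbouring loci on chromosome 6, LOC_Os06g04990, LOC_Os06g05000, LOC_Os06g05010 and LOC_Os06g05020. These loci were chosen for mention after their values were seen, and 2 of the neighbours are shown. LOC_Os06g05000 had 42, 13.5 and 32.6 FPKM in N22 drought libraries and 1.61, 2.47 and 1.66 FPKM in N22 control libraries. IR64 drought libraries had 51.5, 8.53 and 35.7 FPKM and IR64 control libraries 1.55, 3.21 and 2.54 FPKM. LOC_Os06g04990 had 74.2, 34.5 and 43.1 FPKM in N22 drought libraries and 2.75, 4.26 and 4.7 FPKM in N22 control libraries, and 70.4, 17.3 and 37.9 against 3.06, 4.99 and 5.86 FPKM in IR64. In both the second drought library was the lowest and the first the highest. If the 4 neighbours are similar in sequence, their reads may be shared among them, and their values are uncertain to that extent.

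The members lay on all 12 chromosomes, from 4.67% of them on chromosome 9 to 14.7% on each of chromosomes 1 and 3. The loci that met the FPKM minimum were spread in much the same way, with 5.38%, 14.8% and 14.6% on these chromosomes. The widest gaps were on chromosome 2, with 6.67% of members against 12.1% of those loci, and on chromosome 11, with 7.33% against 4.29%. Direct neighbours in the order of locus numbers were few: 8 members stood in 3 such runs, of which the chromosome 6 row was the longest. Among the next 150 loci by score, 6 stood in 3 runs.

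The cultivars were then compared over these loci. The tested quantity was the cultivar effect, N22 minus IR64 averaged over drought and control libraries in log2(FPKM + 1), which the score did not use as such and in which the rule treats the cultivars alike. Of the rule, the FPKM minimum bears on it directly. For a locus near 0 in both control groups, however, it comes close to a fixed share of the difference of the drought changes and so is made from what chose the members. The members' larger spread under drought also means that its error is not fully independent of the errors of the drought changes. limma with Benjamini-Hochberg adjustment over 24276 loci called 28 members (18.7%) higher and 7 (4.67%) lower in N22. Over all tested loci 5.39% were called higher and 4.96% lower, and over the 14311 tested loci that met the FPKM minimum 1.15% and 1.24%. Of the 28, 9 averaged under 1 FPKM in both control groups and are given as a description only. Of the 113 members that averaged 1 FPKM or more in a control group, 19 (16.8%) were called higher and 7 (6.19%) lower. This compares with 1.08% and 1.24% of the 14268 loci that met both conditions. Only 1 control group had to reach this bound. Some of the 19 stayed under 1 FPKM in IR64 control libraries, such as LEA3-2 (0.512 FPKM) and LOC_Os10g36180 (0.286 FPKM). Their effects rest mostly on drought values that the rule used, and the 16.8% is to be read with that limit. The median effect was 0.38 over the members and 0 (to 2 decimals) over all tested loci.

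The count of higher members moved with single drought libraries. Among N22 drought libraries, it was 47 with the third left out and 18 with the first left out. Among IR64 drought libraries, it was 44 with the second left out and 17 with the third left out. With the third drought library of both cultivars left out it was 36, with 8 lower. Fitted on the 6 drought libraries alone, 9 members (6%) were called higher and 1 (0.667%) lower in N22. All tested loci gave 5.24% and 4.72%, and those above the FPKM minimum 0.922% and 0.999%. Fitted on the 6 control libraries alone, where 112 members passed the filter, 7 (6.25%) were called higher and 10 (8.93%) lower. All tested loci then gave 5.33% and 5.09%, and those above the FPKM minimum 0.953% and 1.25%. The median difference, N22 minus IR64, was 0.76 over the 150 members in drought libraries and -0.01 in control libraries.

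As a description, the members called higher and lower in N22 are given by condition. For the 28 higher ones the median difference was 2.02 in drought libraries and 0.72 in control libraries, and it was larger under drought for 27. These 28 include the 9 that averaged under 1 FPKM in both control groups. For those 9 the scale keeps the control difference small, so a larger drought difference was largely fixed in advance. All 3 N22 drought libraries exceeded all 3 IR64 drought libraries for 20 of the 28, and in control libraries this held for 16. For the 7 lower ones the median difference was -1.52 in drought libraries and -1.56 in control libraries. All 3 N22 control libraries lay below all 3 IR64 control libraries for 7 of the 7, and in drought libraries this held for 2.

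**Figure D5:**
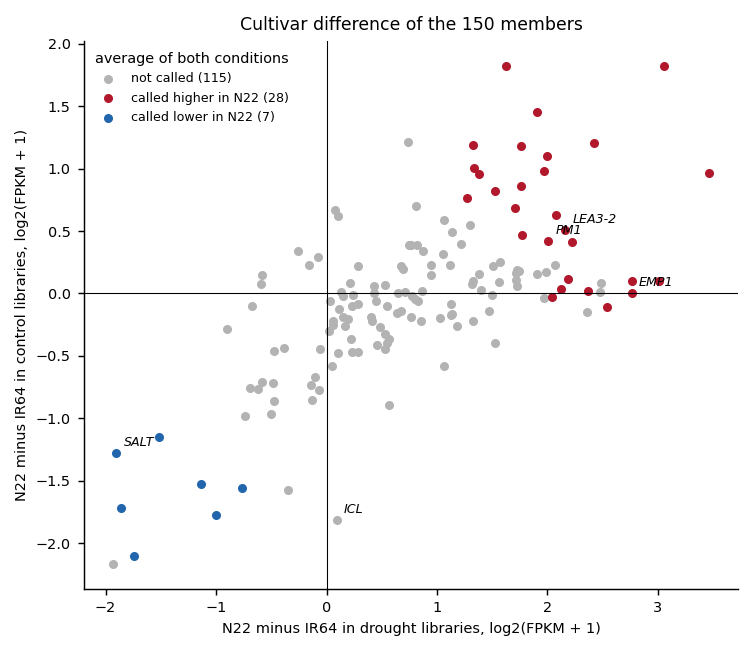
Each point is a member, with N22 minus IR64 in drought libraries on the x axis and in control libraries on the y axis, both in log2(FPKM + 1), coloured by the call of the average over both. The 28 members called higher in N22 lie right of 1 on the x axis, and the 7 called lower lie at -1 or below on the y axis.

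Of the 15 named members 3 were called higher and 1 lower in N22. Of the higher ones PM1, the ABA uptake protein, and the LEA gene EMP1 are among the 9 with controls under 1 FPKM, so their effects carry no test here. For PM1 the effect was 1.21 (SE 0.32), with a difference of 2 in drought and 0.42 in control libraries, and its call was lost with drought libraries alone. For EMP1, with all controls at 0, the effect was 1.38 (SE 0.41), the average of a drought difference of 2.76 and a control difference of 0. The EMP1 call was lost without the first and without the second N22 drought library, and with drought libraries alone. LEA3-2 was higher by 1.33 (SE 0.43, adjusted p = 0.0348), the difference being 2.16 in drought and 0.5 in control libraries. Only its N22 control mean, 1.17 FPKM, passed the bound used for the 9, and its IR64 control mean was 0.512 FPKM. The LEA3-2 effect thus also rests mostly on drought values that the rule used, and its p is to be read with that limit. Its call was lost when any library other than the second IR64 and the third N22 drought library was left out, with adjusted p-values of 0.0507 to 0.0728 in those 10 fits, within 4.63e-05 to 0.126 over all alternatives.

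The lectin gene SALT was lower in N22, with an effect of -1.59 (SE 0.37, adjusted p = 0.00688) and differences of -1.9 in drought and -1.28 in control libraries. Its call was lost with replicate numbers 1 and 2 alone (adjusted p = 0.0587) and with drought libraries alone (0.118), and its adjusted p ranged from 9.57e-05 to 0.118 over the alternatives. The other 11 named members were not called, with effects from -0.86 for ICL to 0.86 for SWEET15 and adjusted p-values from 0.0668 to 0.556. This does not show that the cultivars have equal levels of these genes. In control libraries alone ICL was called lower in N22, with a difference of -1.81 and an adjusted p of 0.00632, while its drought difference was 0.09. The adjusted p of ICL ranged from 0.00632 to 0.959 over the alternatives.

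Without a symbol, the largest called effects upward were those of LOC_Os02g37480 and LOC_Os10g36180. LOC_Os02g37480 had 269.5, 632 and 93.3 FPKM in N22 drought and 3.68, 17.72 and 8.87 FPKM in N22 control libraries, against 20.0, 102 and 12.2 and 1.78, 2.16 and 1.21 FPKM in IR64 drought and control libraries. It was higher in N22 by 2.44 (SE 0.58, adjusted p = 0.00807), although the drought groups of the 2 cultivars overlapped. The adjusted p reached 0.0878 over the alternatives, where the call was lost, but no single library left out lost it. LOC_Os10g36180 had 367, 496 and 129.6 FPKM in N22 drought and 1.42, 2.02 and 1.17 FPKM in N22 control libraries, against 29.8, 39.6 and 13.4 and 0.302, 0.21 and 0.346 FPKM in IR64 drought and control libraries. Here the cultivars did not overlap in either condition, and the effect was 2.21 (SE 0.33, adjusted p = 0.000329). Its control means were 1.54 FPKM in N22 and 0.286 FPKM in IR64, and the difference was 3.46 in drought and 0.97 in control libraries. This effect thus rests mostly on drought values that the rule used, and its p is to be read with that limit.

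The largest called effects downward were those of LOC_Os12g26960 and LOC_Os03g48780. LOC_Os12g26960 had 23.5, 34.7 and 8 FPKM in N22 drought and 1.8, 2.03 and 2.13 FPKM in N22 control libraries, against 74.7, 116 and 32.8 and 8.2, 14.2 and 14 FPKM in IR64 drought and control libraries. Its effect was -1.92 (SE 0.36, adjusted p = 0.0018), with 1 N22 drought library above the lowest of IR64. The adjusted p reached 0.134 over the alternatives, where the call was lost, but no single library left out lost it. LOC_Os03g48780 had 63.5, 55.3 and 40.0 FPKM in N22 drought and 11.8, 5.89 and 6.26 FPKM in N22 control libraries, against 189.7, 257 and 145 and 28.4, 30.8 and 23.3 FPKM in IR64 drought and control libraries. All N22 values were below the IR64 values of the same condition, with an effect of -1.79 (SE 0.19, adjusted p = 2.45e-05) that was called under all 24 alternatives. The abundant LOC_Os01g15270 was also lower in N22, with an effect of -1.39 (SE 0.30, adjusted p = 0.00459), a call lost with numbers 1 and 2 alone and with drought libraries alone.

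The drought change itself was larger in N22 for 135 members and larger in IR64 for 15. Among the next 150 loci by score it was larger in N22 for 116. The median difference of the 2 changes, N22 minus IR64, was 0.72 over the members, 0.38 over the next 150 and 0.01 over all tested loci. The differences were made from the changes that chose the members, so they are given as a description. limma called 0 members for this difference, where 0.247% of all tested loci were called, and 30 members had an unadjusted p below 0.05. With the replicate number as a block 1 member was called. Without the third N22 drought library 18 were called, without the second N22 drought library 1, and without the third drought library of both cultivars 23.

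The largest differences toward N22 among members without a symbol were 2.91 for LOC_Os12g27830 and 2.67 for LOC_Os04g31710, and that of EMP1 was 2.76. LOC_Os12g27830 had 49.5, 100.2 and 28.4 FPKM in N22 drought and 0.13, 0.0775 and 0.0209 FPKM in N22 control libraries, against 4.59, 8.98 and 4.19 and 0, 0.0168 and 0 FPKM in IR64 drought and control libraries. LOC_Os04g31710 had 73.5, 103 and 29.2 FPKM in N22 drought and 0.0708, 0.15 and 0 FPKM in N22 control libraries, against 7.73, 13.4 and 4.9 FPKM in IR64 drought libraries and 0 in all 3 IR64 controls. All 3 were close to 0 in every control library of both cultivars, and under drought each N22 library exceeded each IR64 library. Toward IR64 the largest differences were smaller, -0.73 for LOC_Os01g42190 and -0.67 for LOC_Os04g56430. LOC_Os01g42190 had 18.5, 14.5 and 14.2 FPKM in N22 drought and 3.15, 1.65 and 2.57 FPKM in N22 control libraries, against 28.4, 31 and 15.5 and 1.92, 1.07 and 3.78 FPKM in IR64 drought and control libraries. LOC_Os04g56430 had 212, 776 and 161 FPKM in N22 drought and 47.4, 81.6 and 46.1 FPKM in N22 control libraries, against 243, 1026 and 362 and 66.7, 71.5 and 31.6 FPKM in IR64 drought and control libraries. In both the cultivars overlapped under drought and in control.

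The members were also set among gene groups written down from general knowledge. The counts below cover all listed loci. They include loci whose symbol could not be checked, among them 12 members that are given no symbol here, so the groups are only as sure as the lists. Counts are of loci called higher under drought by limma, beside 6.55% of all tested loci in N22 and 4.35% in IR64. Where loci called lower are counted, no share over all tested loci is given beside them. No difference between lists was tested.

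In the ABA pathway, 8 of 9 listed clade A phosphatase loci were called higher in each cultivar and 3 were members. Of 12 loci of ABA synthesis and breakdown 7 were called higher in N22 and 6 in IR64, and 2 were members, ABA8OX2 and 1 without a checked symbol. Of 10 loci of SnRK2 kinases, the targets of the phosphatases, 2 were called higher in N22 and 1 in IR64, and none was a member. Of these 10, 6 in N22 and 5 in IR64 had an unadjusted p below 0.05. Of 10 listed LEA and dehydrin loci 10 were called higher in N22 and 9 in IR64, and 6 were members, LEA3-2, EMP1, PM1 (kept in this list although of the AWPM-19 family) and 3 without a checked symbol. The locus of EMP1 was on the list from the start under another symbol, and only the symbol EMP1 was added after its values were seen. Of 6 ASR loci, another family of small water-stress proteins, 2 were called higher in each, and none was a member.

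Transcription factor lists held 5 members. They were HOX22 and HOX24 among 11 tested loci of homeobox, MYB, NF-Y and B3 factors, 2 of 8 NAC loci and 1 of 8 zinc finger loci, the last 3 without a checked symbol. Of the 11 homeobox, MYB, NF-Y and B3 loci 4 were called higher in N22 and 3 in IR64, and of the 8 NAC loci 4 in N22 and 3 in IR64. Of the 8 zinc finger loci 4 were called higher and 1 lower in N22, and 3 higher in IR64. Of 9 bZIP loci 6 were called higher in N22 and 4 in IR64, and of 12 DREB and ERF loci 4 in N22 and 1 in IR64. Of 11 WRKY loci limma called 1 in N22 and 0 in IR64, where 2 had an unadjusted p below 0.05. No locus of the bZIP, DREB and ERF or WRKY lists was a member.

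Some lists of protection and carbon use held members. Of 13 tested heat shock loci 8 were called higher in N22 and 5 in IR64, with HSP17.9A as the member, and of 5 sugar transport loci 3 in each, with SWEET15 as the member. Of 13 loci for proline and compatible sugars, the small solutes that hold water in cells, 5 were called higher in each cultivar, and 1 without a checked symbol was a member. Of 11 loci of storage carbon and amino acid breakdown 8 were called higher in N22 and 7 in IR64, and 3 were members, ICL and 2 without a checked symbol. Of 18 other stress loci 9 were called higher in N22 and 7 in IR64, and 3 were members, SALT and 2 without a checked symbol.

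Other lists held no member although some of their loci were called higher. These were 5 of 6 chlorophyll breakdown loci in each cultivar, 4 of 8 clock loci in N22 and 3 in IR64, and 2 of 3 aquaporin loci in N22 and 1 in IR64. Of 11 antioxidant enzyme loci 4 were called higher in N22 and 1 in IR64, and of 14 loci for kinases of calcium and MAP kinase signalling 2 in each. Of 14 jasmonate loci 1 was called higher in each cultivar, and of 3 gibberellin loci 1 in N22 and 2 in IR64. Of 5 loci of auxin and cytokinin turnover 1 was called higher in each cultivar and 1 lower in IR64. Of 3 ion transport loci limma called 1 in N22 and 0 in IR64, where 0 had an unadjusted p below 0.05.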

How the data were processed

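RNA sequencing gave FPKM (fragment numbers scaled to transcript length and to library size) for 12 libraries. The authors computed these FPKM values with Cufflinks 2.2.1, per the submitters' processing notes. Reads had been filtered with NGSQC Toolkit 2.3.3 and mapped to the RGAP 7.0 rice genome with TopHat 2.1.1 and bowtie 2.3.3.0, per the design text. It also names random forest filling of values missing in 1 replicate, and does not say whether the deposited FPKM hold such values. The files give no read numbers and the depth is unknown, so no counting interval is given.

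Groups and replicate numbers came from the sample titles. The 39718 rows gave 39093 loci after rows of 1 name were summed, and a locus absent from a library was set to 0. Of the members, 4 stood in rows naming several loci and 1 was summed from several rows. Tests covered the 24276 loci that reached an FPKM of 1 in 2 or more replicates of any group, taken on log2(FPKM + 1) with limma 3.58.1 (R 4.3.3, intensity trend, 4 groups in 1 fit). A locus was called at a Benjamini-Hochberg adjusted p of at most 0.05 over all of them and a log2 change of at least 1. edgeR, which the design text names for the authors' own comparison, needs counts and was not used here. On simulated data of 24276 loci, 97% of 200 changed loci were recovered for the cultivar effect, with 1 false call. The simulation had no drought change, the same spread in all groups and no pairing of libraries, and it shifted only loci of higher level. It therefore does not show how the test performs for members near 0 in control or with a larger spread under drought.

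Same-numbered libraries of different groups deviated together in all 12 pairs of groups and numbers (Pearson r across loci 0.118 to 0.595), so the numbers were taken to pair the libraries. The main fit has no block, so the SEs, adjusted p-values and calls taken from it leave this pairing out. The fit with the replicate number as a block is an alternative.

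The members, gene lists and tests were chosen with earlier results of these data known. Symbols came from lists written from general knowledge. A symbol was printed only where the RefSeq table (assembly ASM3414082v1) places a gene of that symbol on the chromosome of the locus, as for 162 of 258 pairs. A further 12 listed members failed this check, 11 absent from the table and 1 on another chromosome. They count in the gene lists but carry no symbol. That table does not list the locus numbers used here, so the pairs were not checked further. PP2C59 and MFT1 were added after their values were seen, as was the symbol EMP1 for a locus already listed under another symbol. All members with a symbol are given in every library. Of the others, those given are the 2 with the highest scores, the 2 largest called cultivar effects each way and the 2 largest differences of change each way. The text says where others were chosen after their values were seen. No sequences were used here.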

Additional observations from a re-analysis of the deposited data

How the results depend on the processing

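Of the 150 members, 119 to 150 were chosen again under other pseudocounts, scalings, FPKM minimums, scores, replicate numbers or single libraries left out, and 112 stayed without each of the 12 libraries in turn. The 119 came from the smallest same-numbered difference (replicate block). Members called for the drought change ranged from 147 to 150 in N22 and from 144 to 150 in IR64 without single libraries.

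Members called higher in N22 for the cultivar effect numbered 34 with the replicate block, 7 with control libraries only and 9 with drought libraries only. Without single libraries they ranged from 17 to 47. Members called lower numbered 8 with the replicate block, 1 with drought libraries only and 12 by adjusted p alone, and 6 to 9 without single libraries. The difference of drought changes gave 0 calls in the main fit and 1 with the replicate block, 66 with array weights, 23 without the third drought library of both cultivars and 8 with numbers 1 and 2 alone. Both of these last settings were chosen after seeing the data. Without single libraries it gave 0 to 18. The causes of these moves were not tested.

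For named members not called in the main fit, the effect turned sign with control libraries only for HOX22 (-0.193), PP2C68 (-0.0241) and ABA8OX2 (-0.223), and with drought libraries only for ICL (0.0905). The replicate block also changed calls of members described by locus. For the drought change in IR64 it called 150 members against 148 in the main fit, so LOC_Os09g20220 and LOC_Os11g14910 were called there. For the cultivar effect it called 34 members higher and 8 lower, against 28 and 7. LOC_Os01g46600 (effect 1.08) was among the higher ones gained, and LOC_Os11g14910 (effect -2.05) among the lower.

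Limits: no read counts, 3 libraries a group, a drought spread larger than the control spread, and the third drought library, which stood apart in both cultivars. The 2 motif alternatives for promoters were not run, as no promoter sequence was used.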
